A study of Rattus norvegicus with 15 samples.

Results

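Neutrophils carry their weapons in granules that are filled in order while the cell matures in bone marrow. Primary (azurophil) granules are loaded first, in promyelocytes, with myeloperoxidase and the serine proteases of neutrophils. Secondary (specific) granules follow in myelocytes with lactoferrin, cathelicidin and lipocalin 2, and gelatinase granules come last. The transcription factor C/EBP epsilon is needed for the secondary granule genes. The 10 genes described here are Mpo, Elane, Prtn3 and Ctsg of the primary granules, the regulator Cebpe, and Ltf, Camp, Ngp, Lcn2 and Mmp8 of the later granules. They were chosen by gene name, and all 10 were found among the 30454 genes in the files.

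The femurs came from female Sprague-Dawley (SD) rats that were 8 weeks old when the study began, and polyadenylated RNA was sequenced in 15 libraries, 3 in each of 5 groups. PJ rats were ovariectomised and received the extracts of both plants, 4.0 g per kg per day in all. P rats were ovariectomised and given Psoralea corylifolia Linn. at 2.4 g per kg per day, and J rats were ovariectomised and given Juglans regia L. (walnut) at 1.6 g per kg per day. OVX rats were ovariectomised and given saline, and Sham rats had adipose tissue taken out in place of the ovaries and were also given saline. Recovery took 6 weeks and treatment 8 weeks in every group. Ovariectomy removes the main source of estrogen and is a common model of bone loss after menopause. Whether each library is a separate rat is not stated, and the p-values rest on the spread between libraries, which may be technical.

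The granule genes were far higher in OVX than in Sham femurs, and lower in PJ and P than in OVX femurs. In OVX against Sham, all 9 tested genes rose, with ratios of the mean level from 17.4 (Lcn2) to 59.5 (Camp), where 25.3% of all 14416 tested genes rose. In PJ against OVX, all 9 fell, where 14.6% of all tested genes fell, to between 0.141 (Prtn3) and 0.346 (Mmp8) of the OVX mean. In P against OVX, 8 of 9 fell, where 15% of all tested genes fell, and Camp did not pass. J against OVX had 0 of 9 genes called, where 6.06% of all tested genes passed in either direction. The proportion of primary to later genes differed less between the group means than between the libraries of PJ or of Sham. In PJ the libraries were close together in the primary genes and far apart in the later genes. Ltf was at or near 0 in all 15 libraries and was below the filter for testing.

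A pair of promoters from each granule class is printed here because the classes are contrasted throughout, and the pairs were chosen among those that hold a match to the motifs below. The sequences are RefSeq's, from assembly GRCr8, and run 5′ to 3′ on the gene's strand from 250 bases before to 50 bases after the start of the gene. Capitals mark matches on either strand to TTGCNNAA (a C/EBP-type motif), GAGGAA (an ETS-type motif as PU.1 binds) and TGTGGT (a RUNX-type motif). The windows are chr10:73092152-73092451, plus strand for Mpo, chr15:33907547-33907846, minus strand for Ctsg, chr8:119272355-119272654, plus strand for Ngp and chr8:13008640-13008939, plus strand for Mmp8.
Mpo: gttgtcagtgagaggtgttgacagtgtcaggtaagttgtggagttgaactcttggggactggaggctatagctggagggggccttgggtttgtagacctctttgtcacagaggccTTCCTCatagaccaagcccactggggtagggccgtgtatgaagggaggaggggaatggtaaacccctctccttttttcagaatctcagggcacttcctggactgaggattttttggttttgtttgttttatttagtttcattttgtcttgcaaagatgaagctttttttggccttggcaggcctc
Ctsg: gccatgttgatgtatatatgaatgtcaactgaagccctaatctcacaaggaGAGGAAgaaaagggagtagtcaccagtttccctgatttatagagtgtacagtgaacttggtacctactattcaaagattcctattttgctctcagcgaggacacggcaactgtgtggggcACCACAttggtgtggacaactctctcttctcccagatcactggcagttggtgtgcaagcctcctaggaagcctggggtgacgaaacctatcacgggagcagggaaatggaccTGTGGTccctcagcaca
Ngp: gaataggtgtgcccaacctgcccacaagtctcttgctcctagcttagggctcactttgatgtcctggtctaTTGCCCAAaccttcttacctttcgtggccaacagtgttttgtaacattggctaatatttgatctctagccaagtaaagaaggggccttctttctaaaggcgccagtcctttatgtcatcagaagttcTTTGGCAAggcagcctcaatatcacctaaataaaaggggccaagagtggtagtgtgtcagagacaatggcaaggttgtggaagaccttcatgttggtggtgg
Mmp8: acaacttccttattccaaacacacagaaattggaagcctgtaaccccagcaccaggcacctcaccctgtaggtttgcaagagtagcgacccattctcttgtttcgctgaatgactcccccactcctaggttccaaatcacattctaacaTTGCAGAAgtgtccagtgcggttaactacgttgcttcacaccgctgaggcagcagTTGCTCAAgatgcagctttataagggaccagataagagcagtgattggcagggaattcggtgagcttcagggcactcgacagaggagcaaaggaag
Promoters were at hand for 9 of the 10 genes, Elane being the exception. The ETS-type letters stood in 3 of 3 primary promoters (Mpo, Prtn3 and Ctsg), in that of Cebpe and in 1 of 5 later promoters (Lcn2), and in 27.6% of 33469 promoters of the same length. The C/EBP-type letters stood in 0 of 3 primary promoters and in 3 of 5 later ones (Ngp, Lcn2 and Mmp8), and in 10.6% of all promoters. Ngp held 2 such matches, 179 and 52 bases before the start, and Mmp8 held 2, at 101 and 46 bases. The RUNX-type letters stood in Ctsg, at 79 bases before the start and again after it, and in Ltf, and in 17.3% of all promoters. The Camp promoter held no match to any of these motifs, and that of Lcn2 held both the C/EBP-type and the ETS-type letters. No matches overlap in the printed promoters. The motifs were picked with some of these sequences in view, and a match of letters shows no binding.

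Levels are in FPKM, fragments scaled to gene length and library depth, so they can be set side by side between genes. Depth inferred from the values was 34.4 to 61.0 in units of 1000000 reads. Mitochondrial genes made up 11.2% to 35.9% of a library's FPKM, with P 2 the highest. Femur RNA here holds several tissues, and their share differed by group. The summed level of 8 cartilage genes was 4.90 to 696 FPKM in PJ, 27.5 to 2403 in P with the highest value in P 2, and 2.69 to 157 in J. It was 1.86 to 3.06 FPKM in OVX and 2517 to 5093 in Sham, and Acan and Ucma were listed at 0 in OVX 3 and Ucma in OVX 2. All 7 tested cartilage genes fell in OVX against Sham, with a median log2 fold change of -8.24. Their part in the granule gene results was not tested. In whole femur RNA, fewer neutrophil precursors and less granule RNA in each cannot be told apart.

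**Figure D1:**
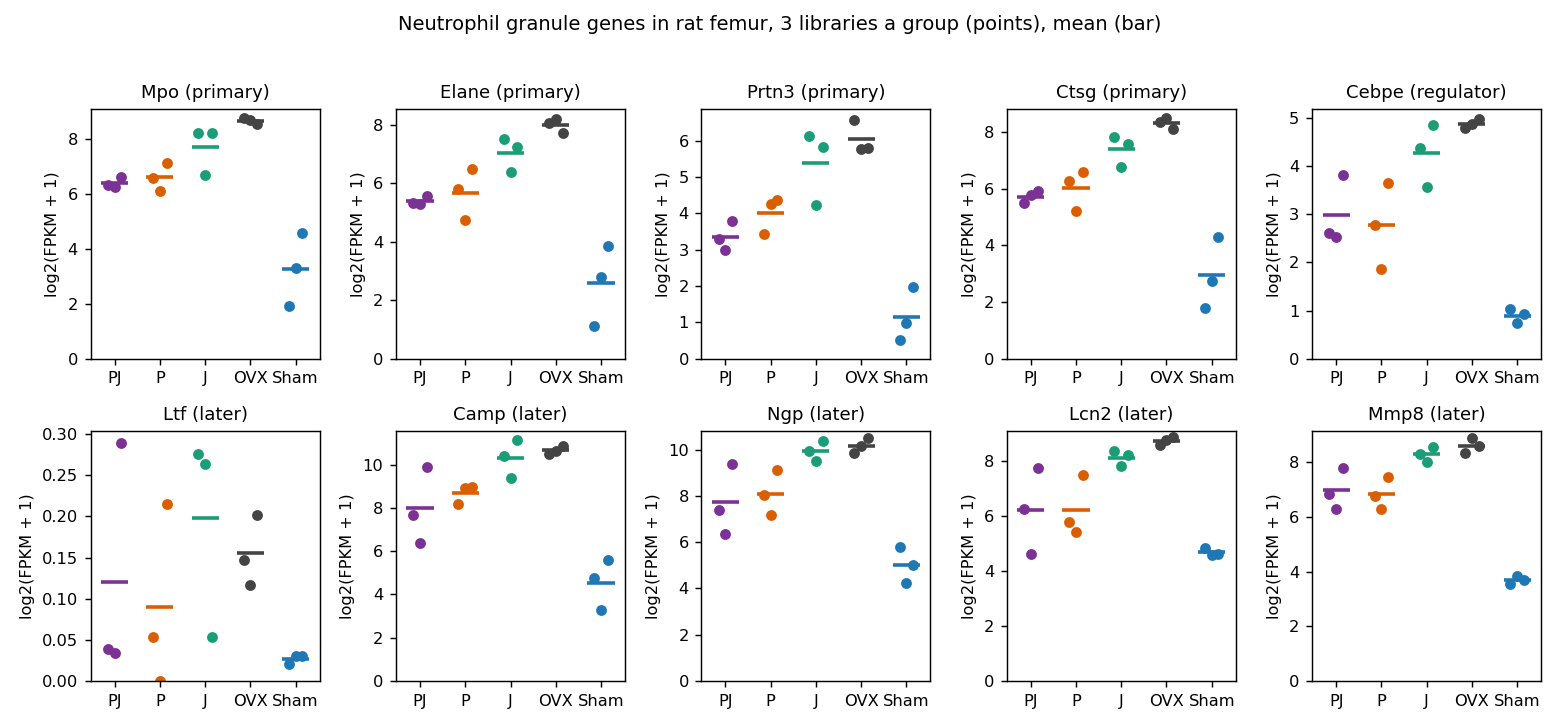
Level of each of the 10 genes as log2(FPKM + 1), 1 panel a gene, with the groups PJ, P, J, OVX and Sham from left to right, a point for each library and a bar at the mean of 3. OVX libraries sit far above Sham libraries in the 9 tested genes, with the means of PJ and P between them, and the axis of Ltf spans a far smaller range.

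Of the primary granule genes, Mpo (ENSRNOG00000008310) makes myeloperoxidase, the enzyme that turns hydrogen peroxide and chloride into hypochlorous acid. It had 79.2, 74.9 and 97.5 FPKM in PJ, 95.3, 67.7 and 139 FPKM in P, 298, 104 and 299 FPKM in J, against 435, 417 and 371 FPKM in OVX and 2.79, 8.84 and 23.1 FPKM in Sham. No library of OVX overlapped with any other group, and J 2 was far below the other J libraries. In OVX against Sham the log2 fold change was 5.40 ± 0.56 (SE), with an adjusted p of 5.55e-06 in limma. The change was -2.27 ± 0.56 in PJ against OVX (adjusted p = 0.00545 in limma) and -2.06 ± 0.56 in P against OVX (adjusted p = 0.0108). Log2 fold changes here are differences of mean log2(FPKM + 1).

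Elane (ENSRNOG00000033685), neutrophil elastase, followed the same order of groups. It had 38.7, 38.5 and 45.8 FPKM in PJ, 54.9, 25.6 and 88.3 FPKM in P, 181, 81.9 and 149 FPKM in J, against 268, 290.4 and 209 FPKM in OVX and 1.17, 5.96 and 13.5 FPKM in Sham. The PJ libraries lay within 1.19-fold of each other, while the Sham libraries spanned 11.6-fold. Its log2 fold change was -2.60 ± 0.58 (SE) in PJ against OVX, with an adjusted p of 0.00312 in limma.

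Prtn3 (ENSRNOG00000029814) makes proteinase 3, a close relative of elastase, and had the lowest mean level of the primary genes in every group. It had 8.83, 6.95 and 12.8 FPKM in PJ, 9.79, 18.2 and 19.8 FPKM in P, 68.8, 17.6 and 55.8 FPKM in J, against 94.3, 53.9 and 54.8 FPKM in OVX and 0.417, 0.980 and 2.97 FPKM in Sham. J 1 and J 3 lay within the OVX range and J 2 was near the P libraries. Prtn3 had the largest log2 fold change of the 9 tested genes in PJ against OVX, -2.69 ± 0.49 (SE), with an adjusted p of 0.000911 in limma. Relative to Elane, Prtn3 was high in P 2 alone, with a ratio of 0.713, against 0.165 to 0.381 in the other 14 libraries.

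Ctsg (ENSRNOG00000020647), cathepsin G, is a further serine protease of these granules. It had 43.9, 53.4 and 59.5 FPKM in PJ, 77.2, 36.5 and 95.03 FPKM in P, 227, 109.6 and 190.0 FPKM in J, against 331, 358 and 277 FPKM in OVX and 2.45, 5.64 and 18.7 FPKM in Sham. OVX again stood above all other groups with no overlap, and the 3 PJ libraries lay within 1.36-fold of each other. Its log2 fold change was -2.60 ± 0.52 (SE) in PJ against OVX, with an adjusted p of 0.00156 in limma.

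Cebpe (ENSRNOG00000014282), the regulator, had the lowest mean level of the 9 tested genes in every group. It had 5.08, 4.78 and 13.1 FPKM in PJ, 5.86, 2.65 and 11.5 FPKM in P, 19.8, 10.8 and 27.9 FPKM in J, against 26.4, 28.2 and 30.4 FPKM in OVX and 1.04, 0.666 and 0.897 FPKM in Sham. The OVX libraries lay within 1.15-fold of each other, and PJ 3 and P 3 were the highest of their groups. Its log2 fold change was 3.97 ± 0.44 (SE, adjusted p = 1e-05 in limma) in OVX against Sham. The change was -2.11 ± 0.44 (adjusted p = 0.00256) in P against OVX and -1.89 ± 0.44 (adjusted p = 0.00422) in PJ against OVX.

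Of the later granule genes, Camp (ENSRNOG00000020733) makes the antimicrobial peptide precursor cathelicidin and had the highest mean level of the 10 genes in PJ, P, J and OVX. It had 206, 82.7 and 956 FPKM in PJ, 287, 489 and 503 FPKM in P, 1371, 672 and 2290.4 FPKM in J, against 1451, 1593 and 1834 FPKM in OVX and 26.2, 8.56 and 47.2 FPKM in Sham. PJ 3 was 11.6 times PJ 2, and the J libraries spanned both sides of the OVX range. In P against OVX, the log2 fold change of -1.97 ± 0.77 (SE) missed the threshold with an adjusted p of 0.0603 in limma, although the libraries did not overlap. It passed in 4 of 10 other settings, with adjusted p in limma from 0.00355 (only the groups compared) to 0.0394 (median-ratio scaling), and missed with voom on recovered reads (0.0556).

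Ngp (ENSRNOG00000024330), neutrophilic granule protein, is related to the cathelicidins and cystatins. It had 168, 81.4 and 674 FPKM in PJ, 259, 142 and 553 FPKM in P, 976, 724 and 1325 FPKM in J, against 918, 1149 and 1449.7 FPKM in OVX and 54.8, 17.8 and 30.9 FPKM in Sham. PJ 3 and P 3 were the highest libraries of their groups and still lay below every OVX library. Its log2 fold change was -2.07 ± 0.68 (SE, adjusted p = 0.0282 in limma) in P against OVX, a call that was lost without P 2 (adjusted p = 0.0973), without P 1 (0.0683) and without any of the 3 OVX libraries (0.0508 to 0.0783). It was also lost with no filter on low values (0.0508 in limma).

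Lcn2 (ENSRNOG00000013973), lipocalin 2, binds bacterial siderophores and so keeps iron from bacteria. It had 76.1, 23.2 and 215 FPKM in PJ, 54.2, 42.1 and 177 FPKM in P, 325, 223 and 294 FPKM in J, against 383, 433 and 468 FPKM in OVX and 27.3, 22.9 and 23.6 FPKM in Sham. PJ 2 lay within the Sham range, while PJ 3 was near the lowest J library. Lcn2 had the largest log2 fold change of the 9 genes in P against OVX, -2.51 ± 0.64 (SE), with an adjusted p of 0.00801 in limma. It was the gene that did not pass against Sham in PJ or in P.

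Mmp8 (ENSRNOG00000009907), neutrophil collagenase, cuts fibrillar collagens. It had 113, 77.8 and 220.0 FPKM in PJ, 109, 77.2 and 175 FPKM in P, 316, 255 and 382 FPKM in J, against 325, 471 and 389 FPKM in OVX and 10.7, 13.2 and 11.8 FPKM in Sham. The Sham libraries lay within 1.24-fold of each other and OVX was above both PJ and P without overlap. In OVX against Sham the log2 fold change was 4.93 ± 0.35 (SE), with an adjusted p of 3.98e-07 in limma, the smallest of the 9 genes. The change was -1.64 ± 0.35 in PJ against OVX (adjusted p = 0.00245 in limma), the smallest in size of the 9.

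Ltf (ENSRNOG00000031779), lactoferrin, an iron-binding protein and a hallmark of secondary granules, was hardly counted. The reads recovered from its values were 4, 4 and 31 in PJ, 4, 0 and 23 in P, 21, 23 and 5 in J, 12, 10 and 17 in OVX, and 2, 2 and 2 in Sham. All Sham libraries and P 2 lay under a floor of 3 reads, which for P 2 is 0.0677 reads per 1000000. No fold is given for Ltf, and its mean of 0.114 ± 0.0331 FPKM in OVX (SD, n = 3) stands beside 1626 ± 193 FPKM for Camp.

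**Figure D2:**
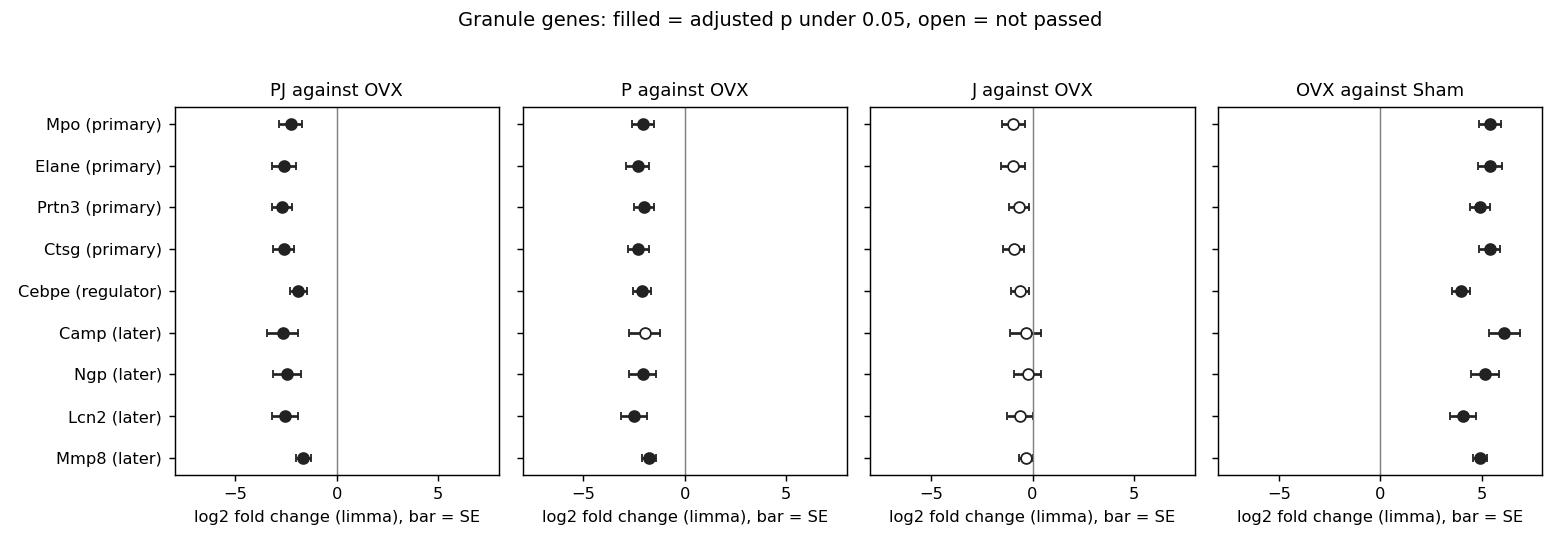
Log2 fold change of the 9 tested genes (rows) in 4 comparisons (panels), with the standard error of the fit as a bar and filled points where the adjusted p was under 0.05. All 9 points are filled on the right in OVX against Sham, 9 on the left in PJ against OVX, 8 in P against OVX (all but Camp) and 0 in J against OVX.

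Of the 10 comparisons, OVX against Sham had the largest median difference in these genes. The median log2 fold change was 5.16 over the 9 tested members, 5.39 over the 4 primary genes and 5.05 over the 4 later genes tested, beside -0.04 over all tested genes. In all 9 the groups did not overlap, where 31.6% of all tested genes were higher without overlap. Together the 10 genes held 0.905% to 1.09% of the summed FPKM in OVX and 0.0195% to 0.0403% in Sham. The call of all 9 held when any 1 library was left out.

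Both extracts given together went with lower granule genes. The median log2 fold change in PJ against OVX was -2.53 over the 9 members, -2.60 over the primary genes and -2.49 over the later genes, beside 0.22 over all tested genes. All 9 lay below OVX without overlap, where 19.2% of all tested genes were lower without overlap. The share of the summed FPKM was 0.181%, 0.104% and 0.512% in PJ 1, PJ 2 and PJ 3. Without PJ 2, Camp (adjusted p = 0.068 in limma) and Ngp (0.0535) no longer passed, and genes lower among all tested numbered 1614, against 2103.

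Psoralea alone also went with lower granule genes. The median log2 fold change in P against OVX was -2.07 over the 9 members, -2.18 over the primary genes and -2.02 over the later genes, beside 0.12 over all tested genes. All 9 lay below OVX without overlap, where 20.8% of all tested genes did so. The count was 7 to 8 when any 1 library was left out, and Ngp was lost without P 1, P 2 or any OVX library. Genes lower among all tested numbered 1624 (without OVX 1) to 1965 (without P 3) in these fits, against 2160. The PJ and P comparisons share the OVX libraries, so their likeness is not independent. Set directly against each other, PJ and P had 0 of 9 genes called, with 0% of all tested genes called and 0 of 9 at an unadjusted p under 0.05. A fit with voom on recovered reads also called 0. The log2 fold changes in PJ against P ran from -0.70 ± 0.77 (Camp, SE) to 0.22 ± 0.44 (Cebpe), which does not show that the groups are alike.

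With walnut alone, no granule gene passed the test against OVX. The log2 fold changes in J against OVX ran from -0.96 ± 0.58 (Elane, SE) to -0.24 ± 0.68 (Ngp), all 9 below 0, with a median of -0.62 beside 0.11 over all tested genes. The number at an unadjusted p under 0.05 was 0, and voom called 0. The median was -0.94 over the primary genes and -0.33 over the later genes. Mpo, Elane, Ctsg and Lcn2 lay below OVX without overlap, 4 of 9, where 14.3% of all tested genes did so. J 2 was the lowest J library in all 9 genes. The mean of the 4 primary genes on the log2 scale was 6.02 in J 2, against 7.42 in J 1 and 7.22 in J 3.

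Setting the extracts against walnut alone, PJ against J had 4 of 9 genes called lower (Prtn3, Ctsg, Ngp and Mmp8), where 5.88% of all tested genes fell. Prtn3 had a log2 fold change of -2.03 ± 0.49 (SE) with an adjusted p of 0.0206 in limma. In P against J, Mmp8 alone passed, 1 of 9, at -1.45 ± 0.35 (adjusted p = 0.0385 in limma), where 3.05% of all tested genes fell. These counts depended on single libraries. PJ against J had 0 called without J 1, without J 3, without PJ 1 or without PJ 2, and 7 without PJ 3. P against J had 0 called without J 1, J 3, P 1, P 2 or P 3. Calls among all tested genes moved as well. Genes lower in PJ against J numbered 848, against 399, 454, 387 and 270 without J 1, J 3, PJ 1 and PJ 2, and 1524 without PJ 3. Genes lower in P against J numbered 439, against 0 without J 1, J 3, P 1 or P 3, and 333 without P 2.

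Against Sham, most granule genes were higher in the treated groups. In J against Sham all 9 genes rose, where 23% of all tested genes rose, with Mmp8 at 4.61 ± 0.35 on the log2 scale (SE, adjusted p = 2.54e-06 in limma). In P against Sham 8 of 9 rose, where 5.95% of all tested genes rose, and in PJ against Sham 8 of 9 rose, where 7.72% rose. Lcn2 was the exception in both, at 1.53 ± 0.64 in PJ (adjusted p = 0.125 in limma) and 1.56 ± 0.64 in P (adjusted p = 0.157). The PJ against Sham count fell to 5 without Sham 1, 4 without Sham 2 and 3 without PJ 3. Genes higher among all tested fell as well, from 1113 to 310, 362 and 346 in the same order. With only the 6 libraries of the groups compared in the fit, the count was 3 in PJ against Sham and 4 in P against Sham. In that fit, genes higher among all tested numbered 388 in PJ against Sham and 454 in P against Sham, the latter down from 858.

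The proportion of primary to later granule genes was followed as the mean log2(FPKM + 1) of Mpo, Elane, Prtn3 and Ctsg minus that of the later genes. Ltf, near 0 everywhere, pulls the later mean down by a share that grows with the level of the other genes, so the value without Ltf is the one described. It was -1.94, -0.83 and -3.24 in PJ, -1.66, -1.87 and -2.11 in P, -1.83, -2.65 and -2.36 in J, -1.37, -1.82 and -2.16 in OVX, and -3.40, -1.52 and -1.04 in Sham. The groups overlap, and their means of -2.01, -1.88, -2.28, -1.79 and -1.99 in the same order lie closer together than the libraries of PJ or of Sham. The 1 added to FPKM raises low levels most, such as those of Prtn3 in Sham (0.417, 0.980 and 2.97 FPKM). Its effect on the value without Ltf was not tested. Without Ltf, OVX minus Sham was 0.20, PJ minus OVX -0.22, P minus OVX -0.10 and J minus OVX -0.50. Single libraries turned 3 of these signs. OVX minus Sham was -0.51 without Sham 1 and also below 0 without OVX 1, PJ minus OVX was 0.40 without PJ 3, and P minus OVX was 0.11 without OVX 1 and 0.02 without P 3. J minus OVX stayed below 0, at -0.72 to -0.29, when any library of these groups was left out. With Ltf, OVX minus Sham was 1.19, PJ minus OVX -0.68, P minus OVX -0.50 and J minus OVX -0.58, with a pooled SD between libraries of 0.74.

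**Figure D3:**
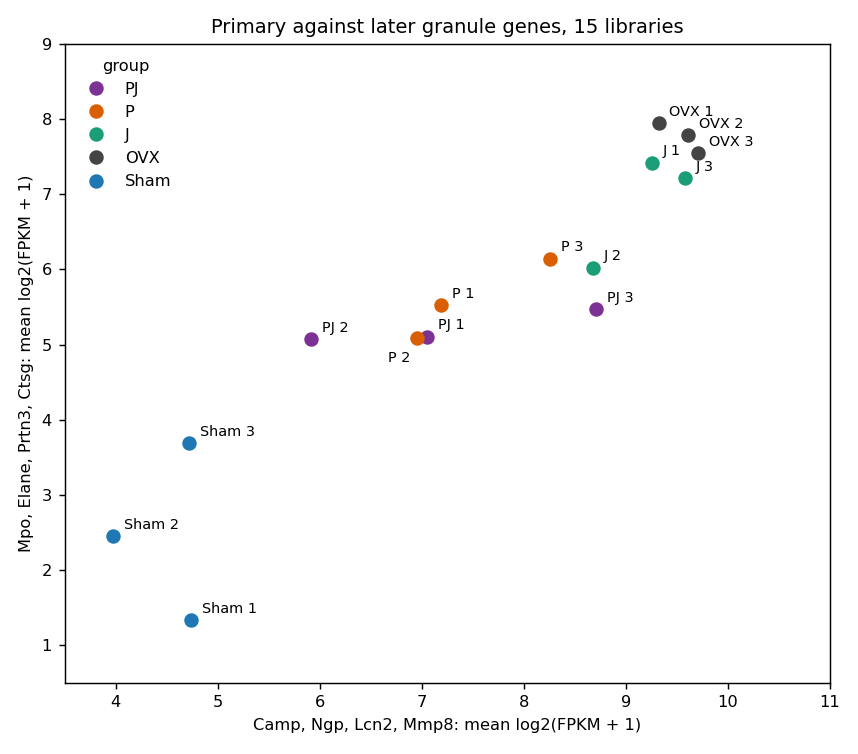
Mean log2(FPKM + 1) of the primary genes (vertical) against that of the later genes without Ltf (horizontal), a point for each of the 15 libraries, coloured by group. OVX is at the top right and Sham at the bottom left. The 3 PJ points are level with each other, at 5.08 to 5.47, and spread far along the later gene axis, and the 3 Sham points are stacked one above another.

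Within groups the primary and later genes spread in different ways. In PJ, the highest library was 1.19 to 1.84 times the lowest in the primary genes, and 2.83 to 11.6 times the lowest in the 4 later genes other than Ltf. PJ 3 was the highest PJ library in all 4 primary genes, in all 5 later genes and in Cebpe, which spanned 2.74-fold. The classes thus differed in the size of the spread and not in which PJ library was highest. In Sham the order was turned round, with 7.11 to 11.6 times in the primary genes and 1.19 to 5.52 times in the later genes. Sham 1 was the lowest and Sham 3 the highest of the Sham libraries in all 4 primary genes. In OVX the spans were 1.17 to 1.75 times in the primary genes and 1.22 to 1.58 times in the 4 later genes other than Ltf. The Mpo to Mmp8 ratio of FPKM was 0.702, 0.963 and 0.443 in PJ, 0.877, 0.877 and 0.796 in P, 0.944, 0.408 and 0.784 in J, 1.34, 0.885 and 0.955 in OVX, and 0.261, 0.670 and 1.96 in Sham. Some tissue markers also set PJ 3 and Sham 3 apart. Summed cartilage genes were 4.90 FPKM in PJ 3, against 513 in PJ 1 and 696 in PJ 2, and erythroid genes 5868, against 1676 and 1345. Adipocyte genes, at 3876 FPKM in PJ 3, lay between PJ 1 (2562) and PJ 2 (4151). Summed osteoclast genes were 2019 FPKM in Sham 3, against 81.7 in Sham 1 and 74.1 in Sham 2. The part of tissue content in the spreads was not tested. With 3 libraries a group these spreads are given with no test.

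The granule genes were also set against genes that all leukocytes use, measured in the same libraries. All 10 pan-leukocyte genes rose in OVX against Sham, where 25.3% of all tested genes rose. Their median log2 fold change was 1.83, against 5.16 for the granule genes. In PJ against OVX, 1 of 10 pan-leukocyte genes fell, where 14.6% of all tested genes fell, and in P against OVX 3 fell, where 15% did. The summed level of these genes was 835 to 1349.6 FPKM in PJ, 503 to 1199.6 in P, 1468 to 1552 in J, 1359 to 1458 in OVX and 269.8 to 674 in Sham. The mean log2 level of the primary genes minus that of the pan-leukocyte genes was -1.18, -0.95 and -1.20 in PJ, -0.75, -0.08 and -0.37 in P, 0.72, -0.80 and 0.60 in J, 1.39, 1.08 and 0.95 in OVX, and -3.003, -2.24 and -1.94 in Sham. By this measure OVX was above all 4 other groups, Sham below all, and neither overlapped with any other group. The same difference for the later genes without Ltf was 0.76, -0.12 and 2.04 in PJ, 0.91, 1.79 and 1.74 in P, 2.55, 1.85 and 2.97 in J, 2.77, 2.90 and 3.11 in OVX, and 0.40, -0.72 and -0.90 in Sham. Here J 3 reached the OVX range and PJ 2 lay within the Sham range. The part of the mix of leukocyte kinds in both differences was not tested.

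**Figure D4:**
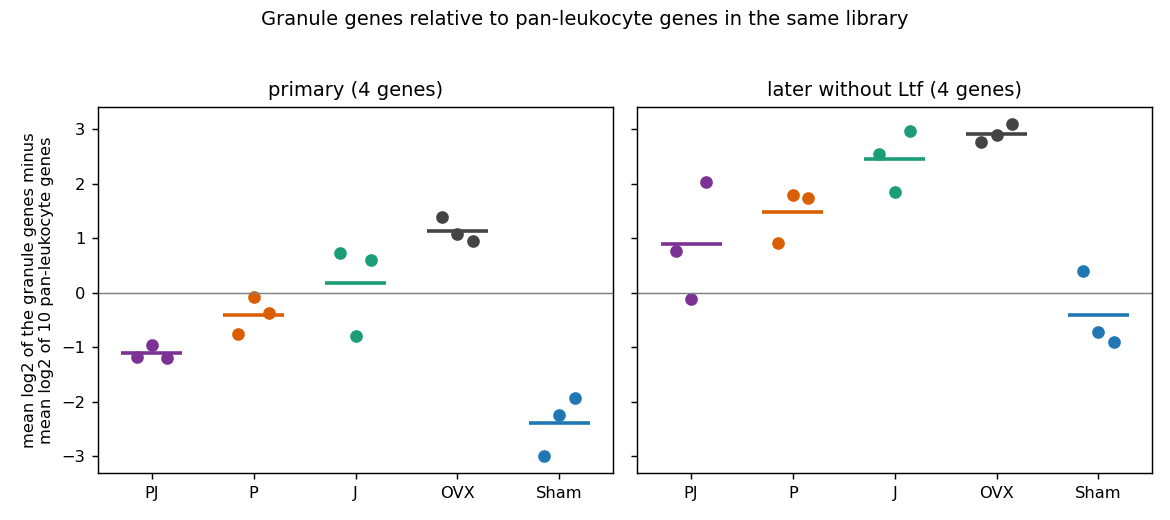
Mean log2 level of the primary genes (left panel) and of the later genes without Ltf (right panel) minus the mean log2 level of 10 pan-leukocyte genes in the same library, by group, with points for libraries and a bar at the mean. In the left panel the PJ libraries lie between -1.20 and -0.95, and the OVX libraries between 0.95 and 1.39. In the right panel PJ runs from -0.12 to 2.04.

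Other genes of the neutrophil line were counted from lists of known roles. Genes of these lists are not all particular to neutrophils, whichever way they moved, and the part of other cells in their levels was not tested. For scale, 25.3% of all tested genes rose in OVX against Sham, 14.6% fell in PJ against OVX and 15% fell in P against OVX. Of 8 tested genes that handle the primary proteases or mark promyelocytes, 6 rose in OVX against Sham, 6 fell in PJ against OVX and 6 fell in P against OVX. Srgn, the serglycin core protein that packs granule proteases, had 237 ± 84.0 FPKM in PJ and 1050.0 ± 32.2 in OVX (SD of 3 libraries each). Its log2 fold change was -2.20 ± 0.36 (SE, adjusted p = 0.000425 in limma). Serpinb1a, an inhibitor of neutrophil serine proteases, had 51.2 ± 7.28 FPKM in PJ and 219 ± 28.8 in OVX. Ms4a3, a surface protein of granulocyte and monocyte progenitors, had 15.7 ± 2.26 FPKM in PJ and 87.0 ± 1.32 in OVX. Ctsc, which activates the serine proteases by trimming them, did not pass in any of these comparisons, with 35.0 FPKM in PJ, 26.1 in P, 22.8 in OVX and 18.9 in Sham on average.

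Of 15 tested genes in a list of other secondary and gelatinase granule genes, 14 rose in OVX against Sham, 6 fell in PJ against OVX and 11 fell in P against OVX. The list also holds genes with other roles, Padi4 among them, so these are not counts of granule proteins alone. Lyz2, lysozyme, had 957 ± 223 FPKM in PJ and 2689 ± 80.7 in OVX (SD, n = 3 each). Pglyrp1, which binds bacterial peptidoglycan, had 49.6 ± 36.0 FPKM in PJ and 182 ± 20.8 in OVX. Cd177, a neutrophil surface antigen, had 16.7 ± 10.9 FPKM in PJ and 73.3 ± 7.10 in OVX, and 1.00 ± 0.48 in Sham. Padi4, which citrullinates histones in neutrophils, had 26.0 ± 2.88 FPKM in OVX and 0.898 ± 0.366 in Sham, a log2 fold change of 3.84 ± 0.42 (SE, adjusted p = 8.97e-06 in limma).

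Of 10 tested surface receptors of neutrophils, 9 rose and Tlr4 fell in OVX against Sham, while 7 fell and Tlr4 rose in PJ against OVX, and 7 fell in P against OVX. Csf3r, the receptor of the growth factor G-CSF, had 18.9 ± 6.38 FPKM in PJ and 46.3 ± 7.71 in OVX (SD of 3 libraries each), with 3.31 ± 1.31 in Sham. Cxcr4, which holds neutrophils in the marrow, had 145 ± 12.1 FPKM in OVX and 17.3 ± 2.35 in Sham. The formyl peptide receptor Fpr2 had a log2 fold change of -1.78 ± 0.30 (SE) and the amplifying receptor Trem1 one of -1.28 ± 0.28 in PJ against OVX, with adjusted p of 0.000493 and 0.00255 in limma. Tlr4, the receptor of bacterial lipopolysaccharide, is also used by macrophages, and it had 4.05 FPKM in PJ, 2.26 in OVX and 4.18 in Sham on average.

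The 10 transcription factors of the granulocyte line moved in mixed directions. In OVX against Sham, 3 of 10 rose (Myb, Gfi1 and Spi1) and 1 fell (Klf4). Of all tested genes 25.3% rose and 28.9% fell, so the share that rose was near that of all genes. Myb, a factor of dividing progenitors, had 39.7 ± 2.90 FPKM in OVX and 1.60 ± 1.41 in Sham (SD, n = 3 each). Gfi1, a repressor needed for neutrophil development, had 14.6 ± 1.11 FPKM in OVX and 3.07 ± 3.68 in Sham. In PJ against OVX 3 of 10 rose, a share near the 29.8% of all tested genes that rose. Cebpa, which starts the granulocyte programme and is also a factor of fat cells, had 88.4 ± 11.9 FPKM in PJ and 29.2 ± 11.5 in OVX, a log2 fold change of 1.63 ± 0.46 (SE, adjusted p = 0.0124 in limma). Klf4, a monocyte and connective tissue factor, had 29.8 ± 13.6 FPKM in PJ and 7.90 ± 1.23 in OVX, and Ets1, a lymphocyte and endothelial factor, had 74.8 ± 8.55 in PJ and 40.8 ± 6.38 in OVX. All 7 adipocyte markers rose in PJ against OVX, with a summed level of 2562 to 4151 FPKM in PJ and 106 to 1229 in OVX, and their part in the Cebpa value was not tested. In J against OVX, limma called 0 genes of the 4 lists of other neutrophil genes and 0 of the pan-leukocyte list, with 1 of the 53 tested genes of these 5 lists at an unadjusted p under 0.05.

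Among markers of other marrow cells, those of red cell precursors, megakaryocytes and dividing cells changed in the same direction as the granule genes, and those of monocytes and macrophages did not. All 10 erythroid genes rose in OVX against Sham, and all 10 fell in PJ against OVX and in P against OVX, with a summed level of 1345 to 5868 FPKM in PJ, 3321 to 9266 in P, 17303 to 21046 in J, 30739 to 41370 in OVX and 375.5 to 2276 in Sham. All 8 megakaryocyte genes and all 8 proliferation genes rose in OVX against Sham and fell in PJ and in P against OVX. Of 10 monocyte and macrophage genes, 0 rose and 2 fell in OVX against Sham, 5 rose and 0 fell in PJ against OVX, and 3 rose and 0 fell in P against OVX. Their summed level was 444 to 498 FPKM in PJ, 149.7 to 541 in P, 208 to 329 in J, 177 to 255 in OVX and 261 to 445 in Sham. Of 6 tested T and NK cell genes, 1 rose in OVX against Sham, 3 rose in PJ against OVX and 1 fell in P against OVX. Of all tested genes, 25.3% rose and 28.9% fell in OVX against Sham. In PJ against OVX 29.8% rose and 14.6% fell, and in P against OVX 24.2% rose and 15% fell. These lists are short, and counts near those shares say nothing particular about a cell type. The part of these cells in the granule gene results was not tested.

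The genes whose log2 levels followed the mean of the primary genes most closely over the 15 libraries were Cst7 (Pearson r = 0.986), Mcm5 (0.986), Nup210 (0.984), Mcm6 (0.983) and Serpinb10 (0.982). Cst7 makes cystatin F, an inhibitor of lysosomal cysteine proteases, and Mcm5 and Mcm6 are subunits of the helicase that unwinds DNA for replication. Those closest to the mean of the later genes were Ifitm6 (r = 0.995), Padi4 (0.991), Pglyrp1 (0.990), S100a8 (0.989) and Ankrd22 (0.988). S100a8, a calcium-binding protein of the neutrophil cytosol, had mean levels of 2055 FPKM in PJ, 2281 in P, 6970 in J, 10120.0 in OVX and 174 in Sham. The 5 genes closest to the primary mean and the 5 closest to the later mean were different genes. These correlations share the libraries, the groups and the scaling, and are given as descriptions.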

How the data were processed

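Polyadenylated RNA of rat femurs was measured in 15 libraries, 3 in each of PJ, P, J, OVX and Sham, and groups came from titles and treatment labels. RNA was extracted with TRIzol and made into libraries with a TruSeq kit, per the labels' protocols, with the strand setting not given in the sources used here. The processing named STAR 2.7.11a, fastp 0.23.4 and featureCounts 2.0.6 with the genome build mRatBN7.2, per the submitters' processing notes, which give no order or role. The deposited values are FPKM, in a column headed as counts per the file headers, while the column headed FPKM was empty in all 15 files. Of 30454 genes, 4319 had no name.

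The granule genes and all gene lists were chosen with earlier results of these data known. Genes with a mean of at least 1 FPKM (14416) were analysed as log2(FPKM + 1), which understates fold changes of low genes. The linear model used limma 3.58.1 (R 4.3.3) over all 15 libraries, with 10 residual degrees of freedom, variances that follow the mean, two-sided tests, Benjamini-Hochberg adjustment over all tested genes and a threshold of 0.05. All 10 comparisons between groups were made. SE are those of the fit and SD those of 3 libraries. Beside the granule genes, the text names the 3 genes of smallest p of each of the 4 lists of other neutrophil genes in OVX against Sham and in PJ against OVX and the 5 genes closest to each class mean, while Ctsc, Spi1, Tlr4, Acan, Ucma and the ratios between granule genes were chosen after their values were seen.

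Depth was inferred from FPKM, since each gene's values step by the worth of 1 read. Of 24207 genes above 0, 24206 had a whole length in bases that makes their values whole within 0.05, and these reads summed to 99.937% to 99.987% of the inferred totals. Of recovered reads from 1 to 20, 60.0% were even, so read ends may have been counted. The floor of 3 reads was 0.0492 to 0.0873 reads per 1000000 and covers counting error only. The alternatives tried were voom on recovered reads, a replicate block, a fit of only the groups compared, array weights, TPM or median-ratio scaling, scaling without mitochondrial and globin genes, a pseudocount of 0.1, a filter at a mean of 5 FPKM or none, and leaving out each library. Leaving Ltf out of the class difference, also with each library left out, was added after the data were seen. The fit was tested on simulated data.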

Additional observations from a re-analysis of the deposited data

How the results depend on the processing

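The counts of granule genes called in OVX against Sham (9), J against Sham (9), J against OVX (0) and PJ against P (0) were the same when any library was left out. The count was 7 to 8 in P against OVX, 7 to 9 in PJ against OVX, 6 to 8 in P against Sham and 3 to 9 in PJ against Sham. In PJ against J (4), it was 2 with a pseudocount of 0.1, 2 without a filter, 1 after rescaling to TPM, 8 with median-ratio scaling, 9 with array weights, 2 with only the groups compared and 0 to 7 when a library was left out. In P against J (1), it was 0 without a filter, 0 after rescaling to TPM, 2 with median-ratio scaling, 9 with array weights, 0 with only the groups compared and 0 to 1 when a library was left out. With only the groups compared, P against Sham had 4 and PJ against Sham 3, where 454 and 388 of all tested genes rose. All tested genes shifted too. Genes lower in PJ against J numbered 848, against 762 with a pseudocount of 0.1, 713 without a filter, 584 after rescaling to TPM, 1465 with median-ratio scaling, 2929 with array weights, 295 with only the groups compared and 270 to 1524 when a library was left out. Genes lower in P against J numbered 439, against 844 with median-ratio scaling, 1791 with array weights and 0 without a filter or with only the groups compared. That number was 120 after rescaling to TPM and 0 to 333 when a library was left out. The cause of these shifts was not tested.

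The labels do not say whether the replicate numbers pair the libraries. Correlations of same-numbered libraries ran from -0.41 to 0.49 and no comparison had all 3 above 0.1. With 3 libraries a group, these values show no pairing but cannot exclude it. With the number as a block, 7 granule genes were called in PJ against J and 2 in P against J. In that fit, genes lower among all tested numbered 875 in PJ against J, against 848, and 453 in P against J, against 439. No other count of granule genes moved by more than 1.5 times.

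The difference between primary and later genes with Ltf kept was 1.19 in OVX minus Sham and 0.51 to 1.69 when a library was left out, and 0.20 without Ltf, which turned to -0.51 without Sham 1. In J minus Sham it was 0.61 with Ltf kept and -0.07 to 1.11 when a library was left out, and -0.30 without Ltf, with -1.004 without Sham 1 and 0.18 without Sham 3. Directions reversed for uncalled values of single genes. In PJ against P, Lcn2 was 0.073 after rescaling to TPM, and Cebpe was -0.42 and Mmp8 -0.23 with array weights. When a library was left out, the log2 fold changes in PJ against P ran from -0.46 to 0.052 for Mpo, -0.75 to 0.12 for Elane, -0.23 to 0.66 for Cebpe, -1.65 to 0.10 for Camp, -1.22 to 0.30 for Ngp, -0.80 to 0.78 for Lcn2 and -0.28 to 0.47 for Mmp8. In J against OVX, Camp ran from -0.75 to 0.13, the last without J 2. Median-ratio scaling moved the median of all genes in PJ against OVX to -0.03, against 0.22, and with it 2992 genes were called higher and 3575 lower, against 4298 and 2103. With 3 libraries a group and 0 to 31 reads, Ltf allows no comparison. Whether reads of Ltf were assigned elsewhere during counting was not tested.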

Other observations

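Granulocytes of other kinds were followed in a list of mast cell, basophil and eosinophil genes. Of 7 tested genes, 5 rose in OVX against Sham, 2 fell in PJ against OVX and 3 fell in P against OVX. Their summed level was 101 to 318 FPKM in PJ, 32.5 to 432 in P, 143 to 154 in J, 195 to 245 in OVX and 4.92 to 14.8 in Sham. Of 8 tested B cell genes, 7 rose in OVX against Sham, 1 rose in PJ against OVX and 0 passed in P against OVX. Of all tested genes, 25.3% rose in OVX against Sham. In PJ against OVX 29.8% rose and 14.6% fell, and in P against OVX 15% fell. These counts are from limma on all genes, at an adjusted p under 0.05.

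The library P 2 stood apart in some ratios of granule genes of 1 class, Prtn3 to Elane and Camp to Ngp. Its Camp to Ngp ratio of FPKM was 3.43, against 0.479 to 1.73 in the other 14 libraries. Its ratios of Ctsg to Elane (1.43) and of Lcn2 to Ngp (0.295) lay within the range of the other libraries. P 2 also had the highest mitochondrial share (35.9% of its FPKM) and the highest summed level of skeletal muscle genes (850.2 FPKM). These ratios were chosen after their values were seen, and no test was made.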
